A study of Homo sapiens with 26 samples.

Results

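The genes described here copy DNA methylation and the repressive histone mark H3K27me3 through replication, together with the related enzymes that are not tied to the replication fork: UHRF1, DNMT1, HELLS, EZH2, SUZ12, EED, EZH1, DNMT3A and DNMT3B. They were chosen by symbol, with earlier results of these data known. Of the 9 listed genes 8 were measured, each by 1 probe set, among 17687 genes with a symbol on the arrays, and EED was not analysed here. Since the differences between Omomyc and vehicle were in view when the genes were listed, their values are given as a description, and the number that passed the test across all genes stands beside the share of all genes that did.

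Expression was measured on 26 single-colour arrays of 3 established human lung cancer cell lines, NCI-H1975 (H1975, labelled lung adenocarcinoma), A549 and NCI-H1299 (H1299, like A549 labelled lung carcinoma). Cells were plated, left overnight and given either 12.8 µM Omomyc or phosphate-buffered saline (PBS) as vehicle. Omomyc is a miniprotein made from the MYC dimerization domain, which binds MAX and DNA in MYC's place. There were 4 PBS and 5 Omomyc arrays of H1975, 4 and 3 of A549, and 5 and 5 of H1299. Every group was grown in RPMI1640 with serum and glutamine, and how long cells were exposed is not stated in the sources used here. No other protein was given as a control, so what Omomyc does and what any added protein would do cannot be told apart. The replicas are labelled biological and nothing else says that they were separate cultures, so the errors measure only the spread between these arrays. Each line is a single established line and RNA was taken from whole cultures, where fewer cells of a kind and less RNA per cell cannot be told apart.

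DNA methylation is lost by dilution at each replication unless it is copied. UHRF1 binds hemimethylated CpG sites behind the fork and recruits DNMT1, which methylates the new strand, and HELLS is a nucleosome remodeller that lets the methyltransferases reach packed DNA. DNMT3A and DNMT3B set methylation de novo. Polycomb repressive complex 2 (PRC2) writes H3K27 methylation through EZH2, or through EZH1, which is also found in cells that do not divide, and SUZ12 and EED are the core subunits that both enzymes need. In many cell types EZH2, UHRF1, DNMT1 and HELLS are transcribed with the genes of S phase under E2F control.

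Promoter sequences of 6 listed genes are shown because the study's agent acts on MYC, whose canonical site is the E-box CACGTG, whereas replication genes commonly carry E2F-type sites. All 9 listed genes had at least 1 window in RefSeq (GRCh38.p14), and each window runs from 250 bases before the annotated start to 20 bases from it. Capitals mark every match of CACGTG and of the E2F-type letters TTTNNCGC, on either strand, where N is any base. UHRF1, HELLS and DNMT1 passed the test as lower with Omomyc in both H1975 and H1299, EZH2 as lower in H1299 and DNMT3A as lower in H1975, while EZH1 passed as higher in H1299. DNMT3A is the listed gene with an E-box. For UHRF1, EZH2 and DNMT3A, which had more than 1 window, 1 window that held a match is shown.
UHRF1, chr19:4909251-4909520, plus strand: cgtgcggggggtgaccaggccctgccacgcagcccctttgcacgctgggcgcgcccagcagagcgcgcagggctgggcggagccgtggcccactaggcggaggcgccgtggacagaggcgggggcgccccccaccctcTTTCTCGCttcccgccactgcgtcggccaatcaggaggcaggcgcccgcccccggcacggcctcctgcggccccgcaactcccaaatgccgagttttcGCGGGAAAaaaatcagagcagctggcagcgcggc
HELLS, chr10:94545538-94545807, plus strand: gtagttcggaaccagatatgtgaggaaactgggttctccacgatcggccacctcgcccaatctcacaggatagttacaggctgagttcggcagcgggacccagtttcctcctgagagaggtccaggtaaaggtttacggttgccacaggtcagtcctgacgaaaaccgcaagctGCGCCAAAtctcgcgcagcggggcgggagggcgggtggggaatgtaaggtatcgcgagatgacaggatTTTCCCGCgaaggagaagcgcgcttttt
DNMT1, chr19:10194934-10195203, minus strand: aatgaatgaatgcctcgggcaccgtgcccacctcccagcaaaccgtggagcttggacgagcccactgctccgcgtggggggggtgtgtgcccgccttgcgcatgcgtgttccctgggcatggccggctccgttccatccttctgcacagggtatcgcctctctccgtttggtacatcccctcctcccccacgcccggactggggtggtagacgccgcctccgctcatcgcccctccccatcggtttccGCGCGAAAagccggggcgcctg
EZH2, chr7:148884272-148884541, minus strand: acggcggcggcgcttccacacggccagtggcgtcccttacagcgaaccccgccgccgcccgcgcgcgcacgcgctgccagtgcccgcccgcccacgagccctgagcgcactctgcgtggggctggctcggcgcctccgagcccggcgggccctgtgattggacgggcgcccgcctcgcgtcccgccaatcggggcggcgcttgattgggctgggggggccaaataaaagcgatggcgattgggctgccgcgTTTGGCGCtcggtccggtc
EZH1, chr17:42745021-42745290, minus strand: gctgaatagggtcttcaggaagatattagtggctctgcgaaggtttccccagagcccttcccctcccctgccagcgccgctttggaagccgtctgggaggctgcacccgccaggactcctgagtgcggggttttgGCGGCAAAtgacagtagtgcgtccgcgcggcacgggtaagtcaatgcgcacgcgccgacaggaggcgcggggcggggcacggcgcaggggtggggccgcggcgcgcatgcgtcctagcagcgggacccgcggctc
DNMT3A, chr2:25252296-25252565, minus strand: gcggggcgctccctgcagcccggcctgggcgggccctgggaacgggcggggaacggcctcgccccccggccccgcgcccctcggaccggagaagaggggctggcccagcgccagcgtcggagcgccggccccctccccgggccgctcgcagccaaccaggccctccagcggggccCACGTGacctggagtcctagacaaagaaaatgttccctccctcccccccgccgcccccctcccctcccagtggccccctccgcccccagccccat

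TTTNNCGC was found in windows of 6 of the 9 listed genes, UHRF1, HELLS, DNMT1, EZH2, SUZ12 and EZH1, and in 7.64% of the 27305 genes with a window. In the windows shown UHRF1 had matches that begin 112 and 14 bases before the start. HELLS had matches 76 and 8 bases before it, and DNMT1 had a match 2 bases before it. A UHRF1 window not shown had a match 160 bases before its start, another had none, and the EZH2 window not shown had none. CACGTG was found in windows of 1 of the 9, DNMT3A, and in 8.23% of all genes and 6.78% of all windows. It lay 75 bases before the start of the window shown. An overlapping DNMT3A window not shown held the same site, 127 bases before its start, and the DNMT3A windows that remain held none. A gene with several windows, such as DNMT3A, had more chances of a match, so the share of genes is not like for like. No window of a listed gene held both. Of the other letters searched on both strands, the noncanonical E-box CACGCG was in windows of 5 of the 9 genes (12.4% of all genes), the CCAAT box CCAAT in 6 (38.2%), the second E2F-type letters GGCGNGAA in 1 (6%) and the cell cycle element TTTGAA in 1 (17%). An NRF1-type motif was also looked for while the motifs were being chosen and is not given a share. The genes of the list are few and were chosen for their expression, and a match describes letters, not a bound site. SUZ12 and EZH1, which hold matches of TTTNNCGC 189 and 115 bases before their starts, did not pass as lower in any line, and DNMT3A, with CACGTG and without TTTNNCGC, passed as lower in H1975.

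The deposited values are on a log2 scale, where 1 unit is a doubling, and ran from 1.35 to 19.91 with a median of 6.48 over the gene means. Background probe sets, which have no intended target, had means of up to 6.69, which marks how far dim genes can be read. The arrays fell into 3 sets by the distribution of all their values, holding 9, 10 and 7 arrays, which no label names. Each set held arrays of every line with each treatment, apart from A549 with Omomyc in set 3, and array means were 7.08 to 7.12 in set 1, 7.3 to 7.36 in set 2 and 6.94 to 6.99 in set 3. Differences below come from all arrays, with the standard error (SE) of the limma fit after ±, and values within the sets stand beside them. As a check on the line labels, AKR1B10, high in KEAP1-mutant A549 cells, was at 17.10 in A549 with PBS against 3.75 and 3.00 in H1975 and H1299, and CDKN2A, deleted in A549, was at 3.33 there against 11.73 and 15.22. Of the 5 epithelial markers 4 had a mean over all arrays above the background probe sets, as did 1 of 3 fibroblast, 0 of 3 leukocyte and 0 of 3 endothelial markers. The fibroblast marker was the collagen gene COL1A1, at 9.44 with PBS and 8.30 with Omomyc in H1975 and between 5.57 and 5.90 in the other groups. DCN was at 4.63 or less in every group, and PDGFRB was above the background level only in H1975 with PBS, at 6.87 against 6.46 with Omomyc. The part of these markers in the H1975 values was not tested. KRT19, EPCAM and CDH1 were not above background in H1299. Nor was CDH1 in H1975, at 3.93 with PBS and 3.73 with Omomyc.

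UHRF1, the reader of hemimethylated DNA, was lower with Omomyc in all 3 lines, by 5.93-fold in H1975, 3.07-fold in H1299 and 1.93-fold in A549. In H1975 the 4 PBS arrays were at 11.51, 11.48, 11.47 and 10.95, and the 5 Omomyc arrays at 8.83, 8.53, 9.56, 8.92 and 8.11. The highest Omomyc array lay 1.40 below the lowest PBS array, and the means were 11.36 ± 0.27 (SD, n = 4) and 8.79 ± 0.53 (SD, n = 5), a difference of -2.57 ± 0.25. The 5 PBS arrays of H1299 were at 10.74, 11.37, 11.01, 10.67 and 10.64, and the Omomyc arrays at 8.95, 9.83, 9.68, 8.99 and 8.90. These groups were apart as well, with means of 10.89 ± 0.31 (SD, n = 5) and 9.27 ± 0.45 (SD, n = 5) and a difference of -1.62 ± 0.24. The 4 PBS arrays of A549 were at 9.04, 8.61, 8.72 and 8.36 and the Omomyc arrays at 7.66, 7.69 and 7.84, a difference of -0.95 ± 0.29. The 3 A549 arrays with Omomyc were the lowest of UHRF1 in the study. Within the array sets UHRF1 differed by -2.83, -2.24 and -2.84 in H1975, by -1.80, -1.43 and -1.71 in H1299, and by -1.15 and -0.88 in sets 1 and 2 of A549, so the direction was the same in each set.

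**Figure D1:**
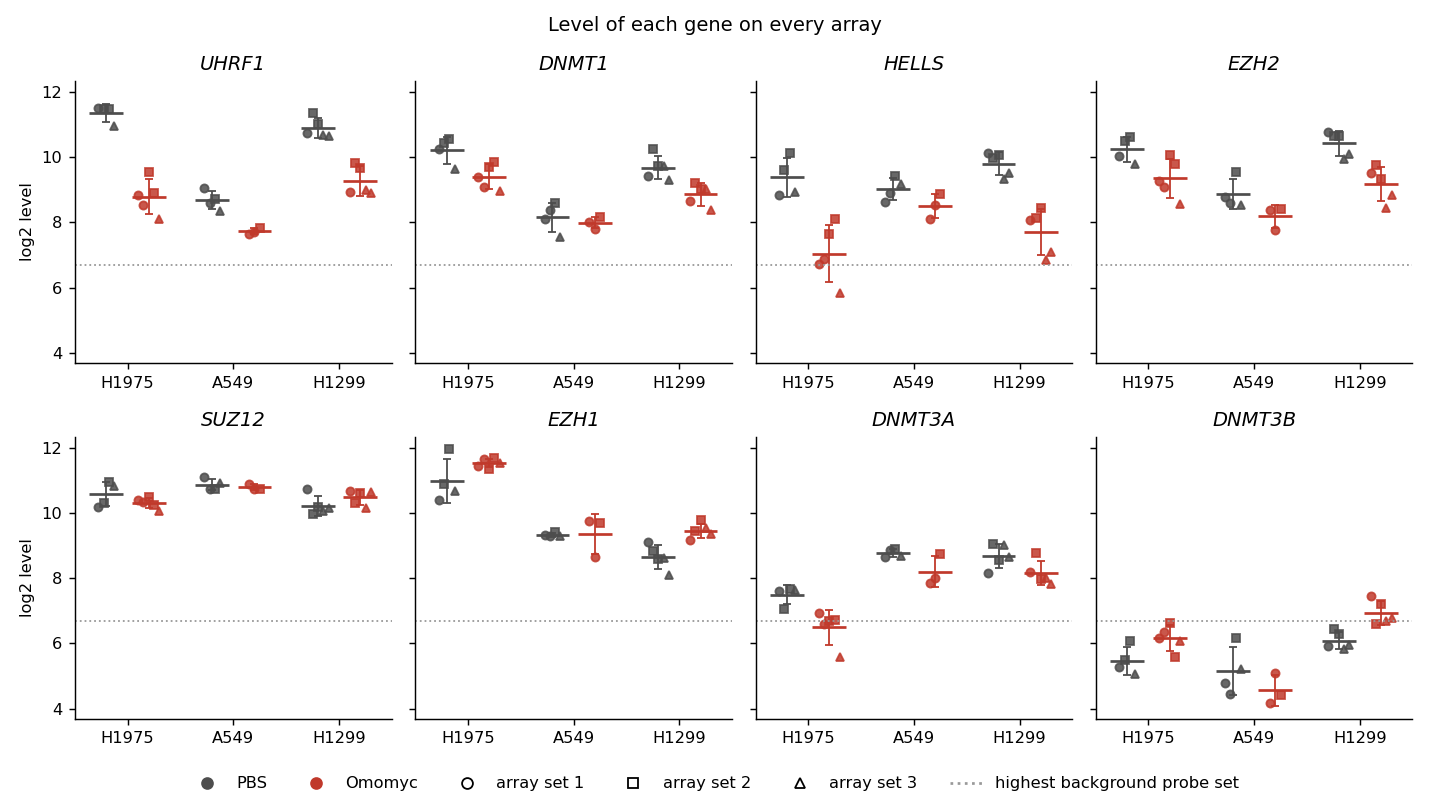
Log2 level of the 8 measured genes on every array (y axis) by cell line (x axis), PBS in grey and Omomyc in red, with the array set as the symbol, the bar at the mean and the whisker at the SD; the dotted line is the highest mean of a background probe set, 6.69. UHRF1 and HELLS have the widest gap between treatments in H1975 and H1299, SUZ12 overlaps in every line, and DNMT3B lies around or below the dotted line.

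DNMT1, the maintenance methyltransferase, was lower by 1.76-fold in H1975 and 1.77-fold in H1299. In H1975 the PBS arrays were at 10.24, 10.44, 10.55 and 9.63 and the Omomyc arrays at 9.41, 9.08, 9.71, 9.86 and 8.96. The groups overlapped there, because the PBS array of set 3 lay below 2 Omomyc arrays of set 2, and the difference was -0.81 ± 0.25. PBS arrays of H1299 were at 9.42, 10.24, 9.72, 9.74 and 9.31 and the Omomyc arrays at 8.66, 9.22, 9.03, 9.02 and 8.37, apart by 0.088, with a difference of -0.83 ± 0.24. PBS arrays of A549 were at 8.12, 8.37, 8.61 and 7.57 and the Omomyc arrays at 8.02, 7.81 and 8.16. The A549 Omomyc arrays lay within the range of the PBS arrays, with a difference of -0.17 ± 0.29. The low end of that range was PBS 4, in set 3, where A549 had no Omomyc array. Without PBS 4 the difference was -0.37 ± 0.29. Within the array sets the differences were -0.998, -0.71 and -0.66 in H1975 and -0.76, -0.85 and -0.83 in H1299. In sets 1 and 2 of A549 they were -0.33 and -0.44. DNMT1 passed the test in H1975 and H1299, but leaving out any 1 of 6 H1975 arrays (PBS 1, 2 or 3, Omomyc 1, 2 or 5) ended the pass in H1975, at differences of -0.81 to -0.70, and leaving out PBS 2, Omomyc 1 or Omomyc 5 ended it in H1299, at -0.78 to -0.69. With the line fitted alone the pass in H1975 was lost as well, at -0.81 ± 0.27.

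HELLS, the remodeller, was lower by 5.06-fold in H1975 and 4.25-fold in H1299. In H1975 the PBS arrays were at 8.86, 9.62, 10.13 and 8.94 and the Omomyc arrays at 6.74, 6.88, 7.65, 8.11 and 5.85. The groups were apart by 0.743, and the lowest array, Omomyc 5 of set 3, was below the background level of 6.69. The means were 9.39 ± 0.60 (SD, n = 4) and 7.05 ± 0.87 (SD, n = 5), a difference of -2.34 ± 0.37. For H1299 the PBS arrays were at 10.14, 9.98, 10.08, 9.33 and 9.51 and the Omomyc arrays at 8.07, 8.15, 8.45, 6.84 and 7.10, a difference of -2.09 ± 0.35. Both treatments of H1299 were lower in set 3 than in sets 1 and 2, and the groups were still apart. For A549 the PBS arrays were at 8.62, 8.90, 9.41 and 9.18 and the Omomyc arrays at 8.11, 8.55 and 8.87, which overlapped, with a difference of -0.52 ± 0.42. HELLS differed by -2.04, -1.99 and -3.09 in sets 1, 2 and 3 of H1975 and by -2.07, -1.73 and -2.45 in those of H1299. In sets 1 and 2 of A549 it differed by -0.44 and -0.55.

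EZH2, the PRC2 methyltransferase of dividing cells, was lower by 2.37-fold in H1299, where it passed the test, by 1.86-fold in H1975 and by 1.60-fold in A549, where it did not. In H1299 the PBS arrays were at 10.77, 10.66, 10.67, 9.95 and 10.09 and the Omomyc arrays at 9.51, 9.76, 9.33, 8.44 and 8.86, apart by 0.191, with a difference of -1.25 ± 0.28. In H1975 the PBS arrays were at 10.05, 10.51, 10.61 and 9.80 and the Omomyc arrays at 9.26, 9.08, 10.07, 9.79 and 8.56. These overlapped, and the difference was -0.89 ± 0.30. In A549 the PBS arrays were at 8.80, 8.60, 9.55 and 8.54 and the Omomyc arrays at 8.38, 7.77 and 8.41, apart by 0.125, with a difference of -0.68 ± 0.34. EZH2 in H1975 stood close to the threshold and passed it in 9 of 21 other settings, among them the fit with the array set as a block, at -0.87 ± 0.19, and the fits without PBS 4, Omomyc 3 or Omomyc 4, at -1.04, -1.07 and -1.0. Within the sets EZH2 differed by -0.89, -0.63 and -1.24 in H1975 and by -1.26, -1.12 and -1.37 in H1299. In sets 1 and 2 of A549 it differed by -0.62 and -1.135.

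SUZ12, the PRC2 core subunit that both EZH enzymes need, did not follow EZH2. Its PBS and Omomyc arrays overlapped in all 3 lines. In H1975 the PBS arrays were at 10.19, 10.32, 10.93 and 10.83 and the Omomyc arrays at 10.40, 10.32, 10.50, 10.24 and 10.07, a difference of -0.26 ± 0.19. In A549 the 7 arrays lay between 10.73 and 11.09, with a difference of -0.08 ± 0.22. In H1299 the PBS arrays were at 10.73, 9.97, 10.18, 10.05 and 10.15 and the Omomyc arrays at 10.65, 10.30, 10.61, 10.14 and 10.65, with a difference of 0.26 ± 0.18, where the highest array was a PBS array.

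**Figure D2:**
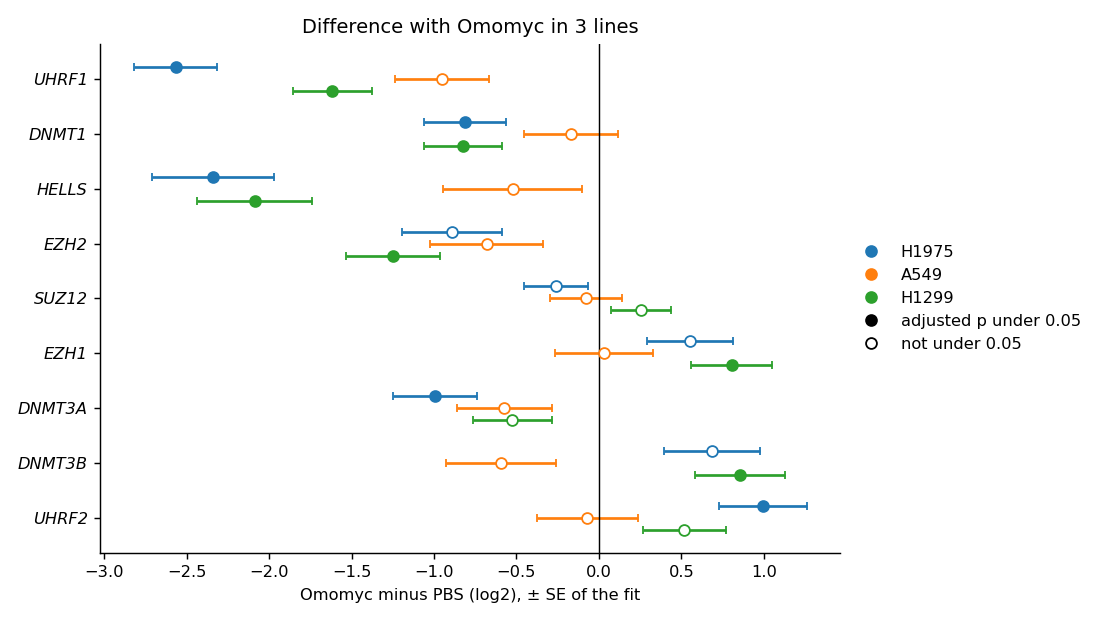
Difference between Omomyc and PBS (x axis, log2, with the SE of the limma fit) for the 8 genes and UHRF2 (y axis), by line; filled circles have an adjusted p under 0.05 over all 17687 genes. UHRF1 at -2.57 in H1975 lies farthest to the left, and EZH1 and DNMT3B in H1299 and UHRF2 in H1975 are the filled circles to the right of 0.

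EZH1, the paralog found also in resting cells, was higher with Omomyc in H1299 by 1.75-fold. There the PBS arrays were at 9.12, 8.83, 8.59, 8.61 and 8.08 and the Omomyc arrays at 9.18, 9.44, 9.77, 9.52 and 9.34, apart by 0.062, with a difference of 0.81 ± 0.24. In H1975 the PBS arrays were at 10.41, 10.90, 11.94 and 10.66 and the Omomyc arrays at 11.44, 11.65, 11.35, 11.68 and 11.53. The PBS 3 array was the highest of all, so the groups overlapped, and the difference was 0.55 ± 0.26. In A549 the PBS arrays lay between 9.28 and 9.43 and the Omomyc arrays at 9.74, 8.64 and 9.69, with a difference of 0.03 ± 0.29. EZH1 in H1299 lost its pass when any 1 of 7 arrays (PBS 3, 4 or 5, Omomyc 2, 3, 4 or 5) was left out, at 0.66 to 0.83, and differed by 0.062, 0.90 and 1.08 in sets 1, 2 and 3. In H1975 it passed in 1 of 21 other settings, without PBS 3, at 0.88 ± 0.24, and in A549 its sign was kept in 12 of 18.

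DNMT3A, a de novo methyltransferase, was lower in H1975 by 2.00-fold, along with the maintenance enzyme. The PBS arrays were at 7.61, 7.06, 7.66 and 7.62 and the Omomyc arrays at 6.92, 6.59, 6.67, 6.71 and 5.57, apart by 0.142, with a difference of -0.997 ± 0.25. The Omomyc mean, 6.49, lay below the highest background mean of 6.69, so this level cannot be read further down. Within the sets of H1975 it differed by -0.86, -0.67 and -2.05. The pass of DNMT3A in H1975 was lost with the array set and replicate block together, at -0.85 ± 0.29. In A549 the PBS arrays were at 8.66, 8.85, 8.90 and 8.69 and the Omomyc arrays at 7.86, 8.01 and 8.73, with a difference of -0.57 ± 0.29. In H1299 the PBS arrays were at 8.17, 9.05, 8.54, 9.0 and 8.64 and the Omomyc arrays at 8.19, 8.75, 7.99, 8.01 and 7.83, with a difference of -0.52 ± 0.24. Both groups overlapped in these 2 lines, and the differences did not pass the test.

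DNMT3B, the other de novo methyltransferase, was dim in every group, with means between 4.56 and 6.94, and 5 of the 6 lay below 6.69. In H1299 the PBS arrays were at 5.92, 6.44, 6.28, 5.82 and 5.95 and the Omomyc arrays at 7.44, 6.59, 7.21, 6.67 and 6.79, apart by 0.145 and higher by 0.86 ± 0.27. That difference passed the test, but not without PBS 1, 3, 4 or 5 or Omomyc 1, 3, 4 or 5, at 0.73 to 0.92. With trend and robust settings the pass was lost as well, at 0.86 ± 0.30. In H1975 the PBS arrays were at 5.26, 5.48, 6.06 and 5.07 and the Omomyc arrays at 6.15, 6.35, 6.63, 5.57 and 6.08, which overlapped, with a difference of 0.69 ± 0.29. In A549 the PBS arrays were at 4.78, 4.45, 6.17 and 5.21 and the Omomyc arrays at 4.18, 5.09 and 4.40, with a difference of -0.59 ± 0.33. In A549 the value was 0.022 in set 1 and -1.77 in set 2, which held 1 array of each treatment.

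In counts, 4 of the 8 measured genes passed an adjusted p under 0.05 in H1975 (limma, Benjamini-Hochberg over all genes), all lower: UHRF1, DNMT1, HELLS and DNMT3A. Of all genes 11.8% passed there in either direction and 6.28% were lower. In H1299 6 of 8 passed, with UHRF1, DNMT1, HELLS and EZH2 lower and EZH1 and DNMT3B higher, where 8.87% of all genes passed, 4.52% lower and 4.35% higher. In A549 0 of 8 passed, where 1.19% of all genes did, and 1 of 8, UHRF1, had an unadjusted p under 0.05. UHRF1 passed in A549 with the array set as a block, at -1.07 ± 0.21, with the replicate number as a block, at -1.06 ± 0.24, and with quantile normalization, at -1.03 ± 0.20, and EZH2 passed with the array set as a block, at -0.84 ± 0.21. UHRF1, DNMT1 and HELLS were the 3 that passed lower in both H1975 and H1299, beside 1.13% of all genes, and 0 passed higher in both, beside 1.25%. The groups did not overlap for 3 genes lower and 0 higher in H1975 (5.35% and 5.18% of all genes, 10.5% in all), 2 lower and 0 higher in A549 (3.6% and 5.79%) and 4 lower and 2 higher in H1299 (4.09% and 3.91%). The median difference of the 8 was -0.852 in H1975, -0.548 in A549 and -0.675 in H1299, beside 0.004, 0.042 and 0.002 over all genes. The list was made with these differences in view, so nothing is read from its counts.

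**Figure D3:**
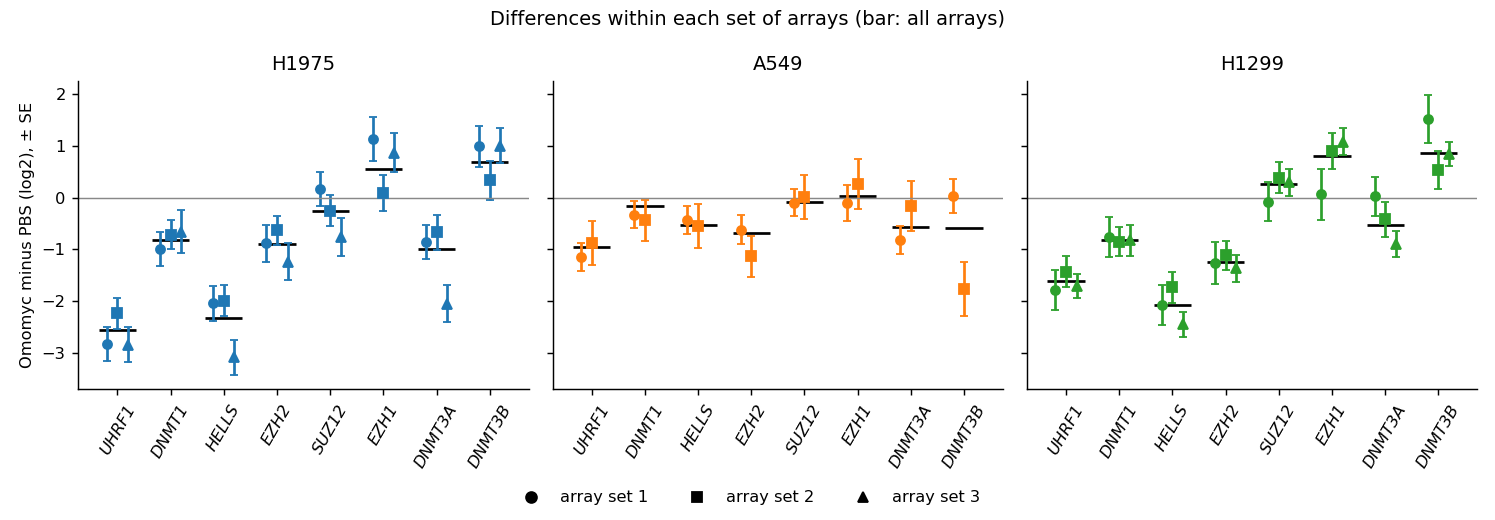
Difference between Omomyc and PBS (y axis, log2, with the SE of the fit within the set) for the 8 genes (x axis) within each of the 3 array sets, 1 panel per line; the horizontal bar is the value from all arrays, and A549 has no value in set 3. UHRF1, DNMT1, HELLS and EZH2 are below 0 in every set of every line, while SUZ12, DNMT3A in H1299 and EZH1 and DNMT3B in A549 lie on both sides of 0.

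With PBS the lines differed most in UHRF1, DNMT1 and EZH1. UHRF1 stood at 11.36 ± 0.27 in H1975, 10.89 ± 0.31 in H1299 and 8.68 ± 0.28 in A549 (SD, n = 4, 5 and 4). H1975 and H1299 overlapped, and both were apart from A549, by 2.67 ± 0.27 and 2.20 ± 0.25 (SE). The PBS mean of A549 lay close to the Omomyc mean of H1975, 8.79. DNMT1 had the same order, 10.22 ± 0.41, 9.69 ± 0.36 and 8.17 ± 0.44, with A549 apart from both. EZH2 was at 10.24 ± 0.38 in H1975, 10.43 ± 0.38 in H1299 and 8.87 ± 0.47 in A549, again with only A549 apart. HELLS differed less, at 9.39 ± 0.60, 9.81 ± 0.37 and 9.03 ± 0.34, and overlapped between each pair of lines.

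EZH1 had another order, with H1975 at 10.98 ± 0.68, A549 at 9.32 ± 0.07 and H1299 at 8.65 ± 0.38, each apart from the next. DNMT3A was lowest in H1975, at 7.49 ± 0.29, apart from A549 at 8.77 ± 0.12 and H1299 at 8.68 ± 0.36, which overlapped. SUZ12 lay between 10.21 and 10.86 with overlap between each pair of lines, and so did DNMT3B between 5.15 and 6.08. Both still passed the test between A549 and H1299, SUZ12 by 0.65 ± 0.19 and DNMT3B, below the background level, by -0.93 ± 0.29 (SE). Of the 8 genes 5 passed the test between H1975 and A549, 6 between A549 and H1299 and 2 between H1975 and H1299, against 38.3%, 41.5% and 42% of all genes. Their ranges were apart for 5, 4 and 2 genes, against 35.2%, 35.1% and 34.5%.

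The size of the response passed the test of a difference between lines for UHRF1, between H1975 and A549, by -1.62 ± 0.38, where 4.62% of all genes passed. HELLS had differences of -1.82 ± 0.56 between the same lines (unadjusted p = 0.0032 in limma) and of 1.56 ± 0.55 between A549 and H1299 (unadjusted p = 0.0082), and DNMT3B of 1.28 ± 0.44 and -1.45 ± 0.43 (unadjusted p = 0.0072 and 0.0023). These 4 are larger than their errors but did not pass after adjustment over all genes. DNMT1 differed between H1975 and A549 by -0.65 ± 0.38. Between H1975 and H1299 0 of 8 genes passed the limma test, where 5.7% of all genes did, and 1 had an unadjusted p under 0.05. That gene was UHRF1, at -0.95 ± 0.35 (unadjusted p = 0.0105 in limma). Between A549 and H1299 0 of 8 passed, where 2.47% of all genes did, and 2, HELLS and DNMT3B, had an unadjusted p under 0.05. With the array set as a block 3 genes passed between H1975 and A549, UHRF1 at -1.49 ± 0.27, HELLS at -1.61 ± 0.36 and DNMT3B at 1.35 ± 0.41. In that fit HELLS at 1.40 ± 0.36 and DNMT3B at -1.50 ± 0.40 passed between A549 and H1299, and UHRF1 at -0.94 ± 0.25 between H1975 and H1299. DNMT3B lay below the background level in 5 of the 6 groups. DNMT1 differed between H1975 and H1299 by 0.01 ± 0.34 and HELLS by -0.25 ± 0.51, so these errors leave room for sizeable differences either way. A549 had 3 Omomyc arrays, the fewest of any group.

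Setting 2 genes of 1 array against each other removes the scaling of the array. EZH2 relative to EZH1 was lower with Omomyc than the PBS mean of the line by 2.72-fold in H1975, 1.64-fold in A549 and 4.15-fold in H1299. In H1299 the 5 Omomyc arrays lay between -2.86 and -1.45 and the PBS arrays between -0.44 and 0.30, and in A549 the 3 Omomyc arrays lay between -0.90 and -0.41 and the PBS arrays between -0.28 and 0.57. The treatments were apart in these 2 lines, but in H1975 the ranges of -2.23 to -0.55 and -0.60 to 0.38 overlapped.

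UHRF1 relative to UHRF2, its paralog, was lower by 11.8-fold in H1975, 1.84-fold in A549 and 4.39-fold in H1299, with the treatments apart in each line. UHRF2 itself rose in H1975, from 8.96 to 9.95, by 0.99 ± 0.27 (adjusted p = 0.0123), and had values of -0.07 ± 0.30 in A549 and 0.52 ± 0.25 in H1299 that did not pass. The pass in H1975 was lost without PBS 1 or PBS 4, with the line fitted alone and with the array set and replicate block together. DNMT1 relative to DNMT3A showed no such gap. It stood at 0.18 in H1975, 0.41 in A549 and -0.30 in H1299 relative to the PBS mean, with overlap in each line. DNMT1 relative to DNMT3B was lower on every Omomyc array than on any PBS array in H1975 and H1299 and overlapped in A549. No fold is given for it, because the DNMT3B means lay below the background level in both groups of H1975 and A549 and in H1299 with PBS. A within-array difference shows that 2 genes changed unequally, not which of them moved.

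**Figure D4:**
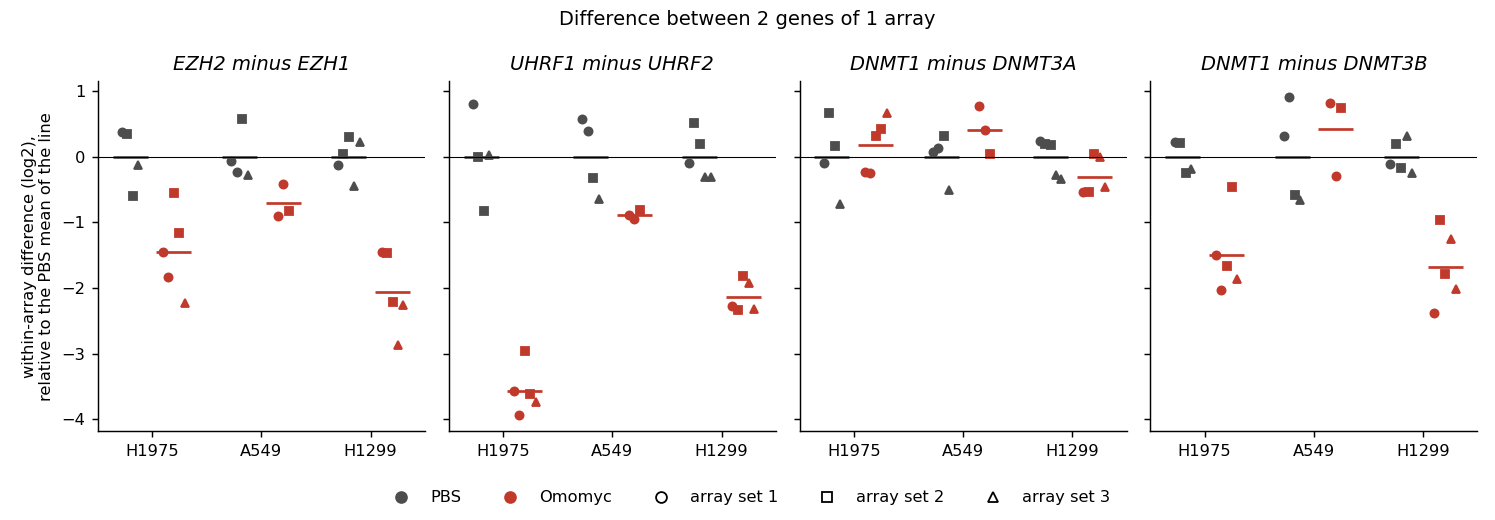
Within-array difference of 2 genes (y axis, log2, relative to the mean of the PBS arrays of that line) on every array by line (x axis), PBS in grey and Omomyc in red, with the array set as the symbol and the bar at the mean. UHRF1 minus UHRF2 separates the treatments in all 3 lines, at means of -3.56, -0.88 and -2.13, while DNMT1 minus DNMT3A overlaps in all 3.

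Among 9 measured partners of maintenance methylation, 5 fell and 1 rose in H1975, 2 fell in H1299 and none passed in A549, where 1 had an unadjusted p under 0.05. Over all genes 6.28% passed as lower and 5.57% as higher in H1975, 0.277% and 0.916% in A549, and 4.52% and 4.35% in H1299. The counts of this list and of those below stand beside these shares. PCNA, the sliding clamp that tethers DNMT1 to the fork, fell by 1.83 ± 0.26 in H1975 (adjusted p = 1.2e-05) and fell by 1.42 ± 0.24 in H1299 (adjusted p = 0.00024). CDCA7, the activator of HELLS, fell by 1.59 ± 0.28 (adjusted p = 0.0002) in H1975 and fell by 1.33 ± 0.26 (adjusted p = 0.0011) in H1299, while in A549 it had a difference of -0.76 ± 0.32. In H1975 TRIM28, a corepressor, fell by 1.14, USP7, the deubiquitinase that stabilises UHRF1 and DNMT1, fell by 0.80 and CDCA7L fell by 0.58, named here after their values were seen. The Omomyc mean of CDCA7 in H1975, 6.05, lay below the background level, so the size of that fall cannot be read exactly. UHRF2 was the gene that rose. The list's median was -0.581, -0.069 and -0.05 in H1975, A549 and H1299. The 5 that fell in H1975 became 3 without PBS 2, PBS 3 or Omomyc 5, where USP7 and CDCA7L lost the pass.

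Of 10 other PRC2 subunits none passed as lower in any line, where 6.28%, 0.277% and 4.52% of all genes did in H1975, A549 and H1299. In so few genes that count is near the shares of all genes, so nothing is read from it. PHF1, which recruits PRC2 to chromatin, rose by 1.90 ± 0.25 in H1975 (adjusted p = 3.2e-06) and by 2.07 ± 0.23 in H1299 (adjusted p = 5.8e-07), 3.74-fold and 4.20-fold. In A549 PHF1 had a difference of 0.57 ± 0.28 (adjusted p = 0.58). JARID2, another accessory subunit, rose in H1975 by 1.24 ± 0.21 (adjusted p = 0.0001) and had 0.10 ± 0.20 in H1299. The histone chaperone subunits RBBP4 and RBBP7 did not pass in any line. In A549 2 of the 10 had an unadjusted p under 0.05, and the smallest p of the list belonged to MTF2, at -0.65 ± 0.24 (adjusted p = 0.27).

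Of 14 subunits of the companion complex PRC1, 3 rose and 1 fell in H1975, 4 rose in H1299 and none passed in A549, where 0 had an unadjusted p under 0.05 and the smallest p belonged to PCGF5, at 0.34 ± 0.26. PCGF1, which defines a variant PRC1, rose by 1.11 ± 0.22 in H1975 and 0.80 ± 0.21 in H1299. CBX7, a reader of H3K27me3, passed as higher in both lines, but its means, 5.26 with PBS and 6.19 with Omomyc in H1975 and 5.37 and 6.60 in H1299, all lay below the highest background mean, so the sizes cannot be read. CBX6 fell by 2.11 ± 0.32 in H1975 (adjusted p = 3e-05) and had -0.09 ± 0.30 in H1299. PCGF2 rose by 0.82 in H1975 and 0.77 in H1299 and PHC3 by 0.81 in H1299, both named after their values were seen. Leaving out PBS 4, Omomyc 1, Omomyc 2 or Omomyc 4 took the 3 that rose in H1975 to 1. In H1299 the 4 became 1 without PBS 5 and 2 without Omomyc 1 or Omomyc 3.

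None of the 6 enzymes that remove these marks, TET1, TET2, TET3, TDG, KDM6A and KDM6B, passed in any line. In so few genes that is near the shares of all genes that passed, 11.8% in H1975, 1.19% in A549 and 8.87% in H1299. Those with an unadjusted p under 0.05 were TET3, at -0.62 ± 0.25 in H1975 and -0.75 ± 0.28 in A549, and TET1 and KDM6B, at 0.65 ± 0.28 and 0.94 ± 0.31 in H1299. The TET3 means in H1975, 6.14 and 5.53, and the PBS mean of TET1 in H1299, 6.21, lay below the background level. Among 12 genes of H3K9 and H4K20 methylation, SETDB2 rose by 0.83 ± 0.26 in H1299 and passed as higher in H1975, where its means of 5.58 and 6.58 lay below the background level. SUV39H1 fell by 0.73 ± 0.24 in H1975 (adjusted p = 0.0493) and SUV39H2 fell by 1.06 ± 0.26 in H1299. The pass of SUV39H1 was lost without any 1 of 7 of the 9 arrays, all but PBS 4 and Omomyc 3, and SETDB2 lost its pass without PBS 1 or PBS 4 in H1975 and without any 1 of 6 of the 10 arrays in H1299 (PBS 1, 4 or 5, Omomyc 1, 2 or 3). SUV39H2 kept its pass without any 1 array. These 2 H3K9 methyltransferases are paralogs, and the values that did not pass were -0.60 ± 0.28 for SUV39H2 in H1975 and -0.04 ± 0.23 for SUV39H1 in H1299. None of the 12 passed in A549, where SETDB2 alone had an unadjusted p under 0.05, at -0.81 ± 0.31. Its A549 means, 6.54 and 5.73, lay below the background level. With 1 higher and 1 lower in H1975 and likewise in H1299, the counts of these 12 were near the shares of all genes.

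Of 12 genes that assemble chromatin behind the fork 4 fell in H1975, 4 in H1299 and 0 in A549 and none rose. MCM2, a helicase subunit that also carries parental histones, fell by 1.22 ± 0.32 in H1975 and fell by 2.00 ± 0.30 in H1299, there to 6.48, below the background level. ASF1B, a histone chaperone, fell by 1.63 ± 0.31 in H1975, and CHAF1B, a subunit of the chromatin assembly factor CAF-1, fell by 1.51 ± 0.27 in H1299. CHAF1A and NASP in H1975 and HAT1 and SUPT16H in H1299 were the others, named after their values were seen. In A549 CHAF1B alone had an unadjusted p under 0.05, at -0.82 ± 0.33 (adjusted p = 0.38). With other settings over all arrays the count ran from 0 to 5 in H1975 and from 4 to 8 in H1299, and it was 2 in H1975 without PBS 1, PBS 2, PBS 4 or Omomyc 5.

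Of 5 genes for replication-independent assembly of the variant histone H3.3, UBN1 fell by 0.77 ± 0.19 and CABIN1 fell by 0.93 ± 0.28 in H1975. H3-3B, which encodes H3.3, rose by 0.68 ± 0.20 in H1975 and fell by 0.64 ± 0.19 in H1299. CABIN1 lost its pass without PBS 3, PBS 4, Omomyc 3 or Omomyc 4, and H3-3B without 3 of the 9 arrays of H1975 (PBS 3, Omomyc 3 or 4) and 5 of the 10 of H1299 (PBS 2, 3 or 5, Omomyc 1 or 4). None of the 5 passed in A549, where CABIN1 had -0.86 ± 0.31. Of 16 germline genes that promoter methylation commonly keeps silent in somatic cells, none passed as higher in any line. Of all genes 5.57%, 0.916% and 4.35% did in H1975, A549 and H1299, so the count of these 16 is near those shares. Only 4 of these 16 had a mean above the background level, so a small rise from silence could not be seen. Some were not silent with PBS, among them HORMAD1, at 8.16, 9.86 and 12.68 in H1975, A549 and H1299. GAGE1 was at 13.57 and MAGEA3 at 11.74 in H1299 with PBS, so such genes could not show a rise from silence there. MAGEA4, which is active in H1299 at 14.18, had a mean that fell by 1.14 ± 0.19 there, and TDRD6, at 4.49 in H1975, passed as lower within the background range, but not without PBS 1, PBS 3 or Omomyc 4.

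**Figure D5:**
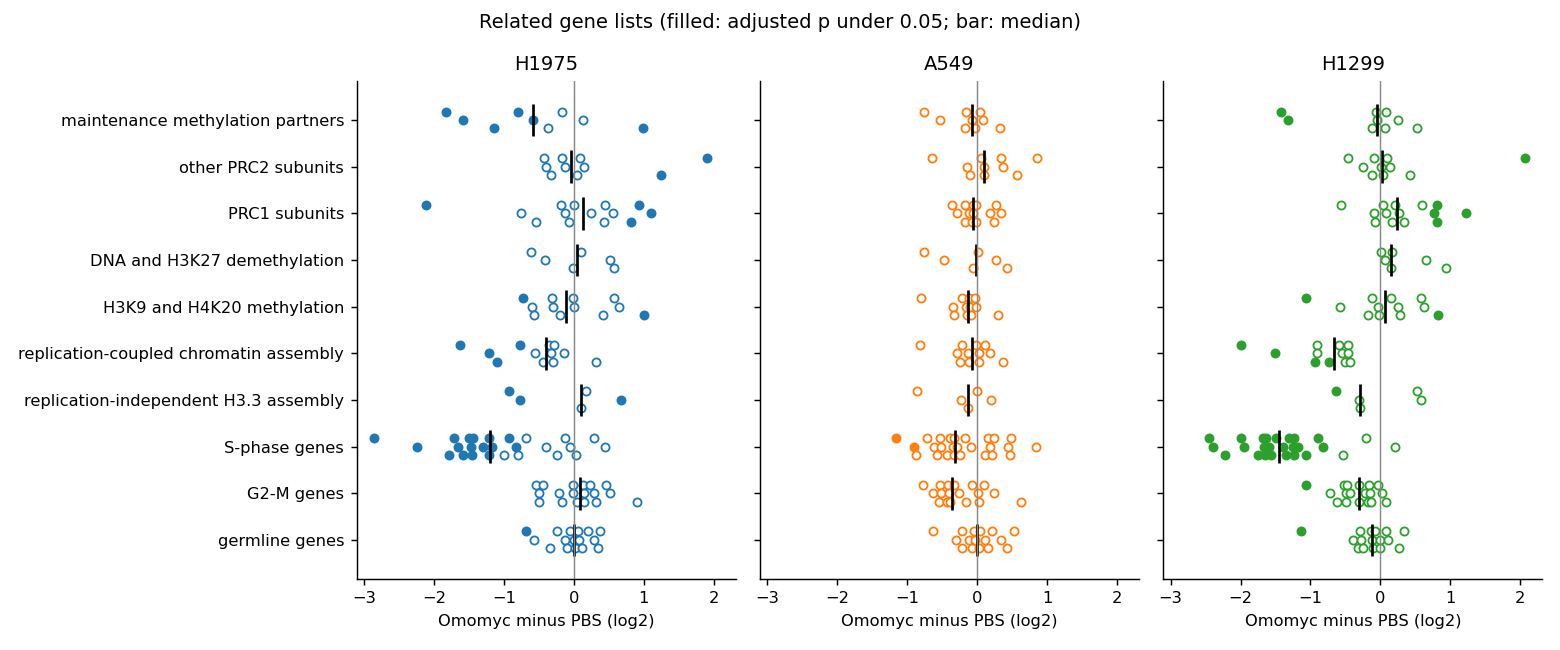
Difference between Omomyc and PBS (x axis, log2) of every measured gene of the related lists (y axis), 1 panel per line, where filled circles have an adjusted p under 0.05 over all genes and the black bar is the list's median. The S-phase list has its median at -1.198 in H1975 and -1.443 in H1299, and the G2-M list at 0.087 and -0.304.

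Genes of S phase fell beside UHRF1, DNMT1 and HELLS in H1975 and H1299, but not beside all members, since EZH1 and DNMT3B rose in H1299. Of 26 such genes 16 fell in H1975, 23 in H1299 and 2 in A549, none rose, and the medians were -1.198, -1.443 and -0.311. CCNE2, a cyclin of the entry into S phase, fell by 2.86 ± 0.39 in H1975, and CDC45, a part of the replicative helicase, fell by 2.39 ± 0.28 in H1299. Both ended below the background level, at 4.44 and 5.96. In A549 CCNE1 fell by 1.16 ± 0.26 and TYMS, which makes thymidylate, fell by 0.91 ± 0.23. The 2 in A549 became 0 without PBS 2 or Omomyc 3 and with the line fitted alone, and 1 without PBS 1, PBS 4, Omomyc 1 or Omomyc 2, with the replicate block or with median centring. The 16 in H1975 became 7 with the array set and replicate block together and were 14 to 18 without 1 array. In H1299 the count was 22 to 24 with other settings over all arrays or without 1 array, and 1 to 18 in an array set alone, with the 1 in set 1, which held 1 array of each treatment. Of 18 G2-M genes none passed in H1975 or A549, where 3 and 2 had an unadjusted p under 0.05, and in H1299 MKI67 alone fell by 1.07 ± 0.27, with medians of 0.087, -0.362 and -0.304. These G2-M counts are not far from the shares of all genes that passed, 11.8%, 1.19% and 8.87% in H1975, A549 and H1299. The part of the S-phase and G2-M genes in the values of UHRF1, DNMT1, HELLS and EZH2 was not tested. The lists share genes, such as MCM2, with each other, and were drawn up with earlier results of these data known.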

How the data were processed

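Total RNA of 26 samples was labelled with biotin and hybridised to 26 arrays with 1 probe set per transcript cluster. Values were deposited as log2 values, made by the authors with RMA and Partek, per the submitters' processing notes, which give no versions. RMA corrects background, quantile-normalizes and summarises probes, so shifts of any size that all genes share are removed among arrays normalized together. Array means still differed between the array sets, as given above. The genome build, and whether the arrays were normalized as 1 batch, are not stated in the sources used here. No gene coordinates are given, and promoter windows come from RefSeq on its own build, GRCh38.p14.

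Of 24351 features, 17709 had 1 gene symbol and 6642 none. Where a gene had several probe sets (20 genes), the brightest on average was kept, giving 17687 genes. limma 3.58.1 in R 4.3.3 fitted 1 coefficient per group to all 26 arrays (lmFit, eBayes, 20 residual degrees of freedom), with Benjamini-Hochberg adjustment over all genes and a threshold of 0.05, and the fit was tested on simulated data. Array sets are the 3 clusters of the sorted values of each array (average linkage). The number of arrays limits the precision: 2 arrays of a group differed by a median SD of 0.532 within a set and 0.631 between sets.

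The members and the lists were chosen with earlier results of these data known. Named are all listed genes, MYC and MAX, the line check genes, up to 2 genes that passed in each direction per list and line (or the 1 with the smallest p), and for each of 7 members the 3 genes most like it over the 26 arrays, among genes above the median of all genes. Among the listed genes EED, PCLAF, RNF2, BMI1, CBX8, PHC2, CBX5, HIRA, H3-3A, SYCE1 and CTAG1B were not analysed here.

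To see whether replicate numbers pair arrays, deviations from the group mean were correlated between the PBS and Omomyc array of each number. The 5 pairs in H1299 had correlations of 0.26 to 0.39 and the 3 in A549 of 0.11 to 0.2, all over 0.1, the level set for a pairing. The reported fit has no pairing, and the replicate block is an alternative. In H1975 it was -0.2 to 0.33, with 1 of 4 over 0.1. With the array set removed the ranges were -0.13 to 0.07, -0.15 to 0.02 and -0.26 to 0.09. Alternatives were other scalings, a filter on low genes, averaged probe sets, each line fitted by itself, trend with robust settings, array set and replicate blocks, each set alone and leaving out each array.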

Additional observations from a re-analysis of the deposited data

Results flagged for a closer look

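The Omomyc response of UHRF1 differed between H1975 and A549 by -1.62 ± 0.382 (SE), the one of 24 differences in response between lines over the 8 measured genes with an adjusted p under 0.05 (adjusted p = 0.0108 in limma, Benjamini-Hochberg over all genes). UHRF1 was lower on all 5 H1975 Omomyc arrays and all 3 A549 Omomyc arrays than on any PBS array of the same line. The pair of lines was in view when the gene was listed.

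In 4 of 40 groups of 4 or 5 arrays 1 array stood apart from the rest of its group, where chance gives about 1 in 20. That rate takes arrays as alike and groups as independent. The genes share the same arrays and each group mixes array sets, so no excess is read from it. The measure is the gap to the nearest array as a share of the group's range. UHRF1 on H1975 PBS 4 was at 10.95, below the next array at 11.47, a share of 0.931. SUZ12 on H1299 PBS 1 was at 10.73, above the next at 10.18, a share of 0.719. DNMT3A on H1975 PBS 2 was at 7.06, below the next at 7.61, a share of 0.918, and on H1975 Omomyc 5 at 5.57, below the next at 6.59, a share of 0.759. H1975 PBS 4 and Omomyc 5 were the arrays of that line in set 3. Without H1975 PBS 2 or Omomyc 5, DNMT3A in H1975 differed by -1.14 and -0.77 and passed the test in both. It did not pass with the array set and replicate block together, at -0.85 ± 0.29.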

How the results depend on the processing

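UHRF1 and HELLS passed in H1975 under all 21 other settings, at -2.84 to -2.24 and -3.09 to -1.99, and in H1299 under 21 of 22, missing the threshold only in array set 1 alone, which held 1 array of each treatment there. The number of the 8 genes that passed in H1975, 4, was 2 in set 1 alone and 2 in set 2 alone, and 3 to 5 without 1 array. In H1299 the 6 became 0 in set 1 alone, 2 in set 2 alone and 3 to 5 without 1 array, the 3 without Omomyc 5. In A549 the 0 became 2 with the array set as a block, and 1 with quantile normalization, with median centring and with the replicate number as a block, with or without the array set, and stayed 0 without any 1 array. The replicate block gave 5 in H1975 and 6 in H1299, and over all genes 2585, 226 and 2239 in H1975, A549 and H1299 against 2095, 211 and 1569. With the array set as a block all genes that passed were 3400, 502 and 2812, with quantile normalization 2889, 351 and 2292, and with a fit on the line alone 1544, 81 and 1354. For the response difference between H1975 and A549 the 1 became 3 with the array set as a block, quantile normalization or median centring, 2 with low genes left out or with trend and robust settings, and 1 to 2 without 1 array. Between H1975 and H1299 the 0 became 1 with the array set as a block, quantile normalization or median centring, and 0 to 1 without 1 array. Between A549 and H1299 it became 2 with each of these and 0 to 1 without 1 array. For the PBS levels of H1975 and H1299 the 2 became 4 with the array set as a block and 5 with quantile normalization. Over the 8 genes and 3 lines, 416 values kept sign and side of the threshold, 8 that passed in neither fit changed sign within the replicate spread, 44 lost the pass, 17 gained it, 3 without a pass moved beyond the replicate spread and 0 that passed changed sign. The cause was not tested. A549 could not be fitted in set 3 alone, and signal over background limits DNMT3B in all lines and DNMT3A in H1975.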

Other observations

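The transcripts of Omomyc's own partners went different ways in the lines. MYC rose in H1975 from 13.68 to 14.65, by 0.97 ± 0.20 (SE, adjusted p = 0.0012 in limma), and in H1299, from 13.15 to 11.99, it fell by 1.15 ± 0.19 (adjusted p = 0.00014), while UHRF1, HELLS and DNMT1 were lower in both. In A549 MYC had a difference of -0.23 ± 0.23. MAX fell by 0.92 ± 0.23 in H1975 and fell by 0.75 ± 0.22 in H1299, and had 0.94 ± 0.26 in A549 (adjusted p = 0.08).

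The genes whose pattern was most like that of a member were sought among 8836 genes above the median of all genes, over the 26 arrays with the mean of each line removed. The arrays share the treatment contrast and the array set, so the correlations are a description. UHRF1 was most like MCM3 (r = 0.95), MCM7 (r = 0.941) and EXO1 (r = 0.94), and DNMT1 most like BRCA1 (r = 0.922), SEPHS1 (r = 0.906) and CLSPN (r = 0.898). HELLS was most like POLR1A (r = 0.942), EXOG (r = 0.937) and POLR3B (r = 0.934), and EZH2 most like CENPO (r = 0.922), MTRR (r = 0.918) and COX20 (r = 0.914). EZH1 was most like ETV6 (r = 0.836), DLGAP4 (r = 0.828) and GTF2IRD1 (r = 0.805). DNMT3A was most like BAZ1B (r = 0.828), THOC1 (r = 0.814) and FERMT1 (r = 0.813), and DNMT3B most like CAPRIN2 (r = 0.861), GABBR1 (r = 0.832) and KCTD13 (r = 0.782).

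Among UHRF1, DNMT1, HELLS and EZH2 the 6 pairwise correlations were 0.82 to 0.9 with the line mean removed, 0.53 to 0.82 with the group mean removed and -0.28 to 0.47 with the array set removed as well. SUZ12 went the other way with HELLS, from 0.15 to 0.31 and 0.54, and with EZH2, from 0.11 to 0.28 and 0.52. Its correlation with DNMT1 went from -0.19 to -0.3 and -0.49, and with UHRF1 from 0.09 to 0 and -0.02.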
